A study of Rattus norvegicus with 12 samples.

Results

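The genes described here are 9 regulators of G protein signalling (RGS): Rgs2, Rgs4, Rgs5, Rgs7, Rgs8, Rgs9, Rgs10, Rgs14 and Rgs16. They were taken by name, as every probe whose gene name in the array files or current symbol is a member, which gave 10 probes (2 for Rgs4 and 1 for each of the others) among 41012 gene probes for 35152 genes or unnamed transcripts. RNA came from the striatum of both brain sides of male Sprague-Dawley rats, 1 rat to each of 12 Agilent whole genome arrays. All rats spent 40 minutes in the exposure and were perfused with chilled saline under pentobarbital anaesthesia. The air rat was taken at 0 h, that is right after the exposure. The rats given 1000 ppm carbon monoxide (CO) and 3000 ppm CO were taken at 0, 2, 6 and 12 h, and those given 5% O2, a low oxygen mixture, at 0, 2 and 6 h. Levels of an exposure are listed below in that order of hours, with the 1000 ppm CO rats first, the 3000 ppm CO rats next and the 5% O2 rats last. No combination of exposure and time had a second rat, so a difference between 2 arrays carries no replicate check and no p-value is given for it. A level is the log2 processed signal minus the 75th percentile of its array, so a difference of 1 in level is a 2-fold difference in signal. Levels are compared between arrays for the same probe and never between probes.

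RGS proteins speed up the hydrolysis of GTP by active G protein alpha subunits and so shorten the signal of G protein coupled receptors. Members of the R4 subfamily (here Rgs2, Rgs4, Rgs5, Rgs8 and Rgs16) are small proteins that act on Gi or Gq subunits, and several of them are switched on quickly by neuronal activity or stress. Members of the R7 subfamily (Rgs7 and Rgs9) are bound to the beta subunit Gnb5, and Rgs9 is known as a marker of medium spiny neurons, the projection neurons of the striatum, where it limits dopamine and opioid receptor signalling. Members of the R12 subfamily (Rgs10 and Rgs14) act on Gi subunits, and Rgs14 carries further domains that bind Ras proteins and inactive Gi.

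The probes decide which transcripts were read, so 4 of them are shown, each 60 bases long and written 5′ to 3′ as in the array files. The Rgs16 and Rgs5 probes come first because each matches the rat build rn4 in separate blocks. The Rgs16 probe lies at chr13:68808366-68809087 on the plus strand, a span of 722 bases, and the Rgs5 probe at chr13:85480542-85482176 on the plus strand, a span of 1635 bases. The Rgs4 probe shown is the dimmer of its 2 probes, at chr13:85536780-85536839 on the minus strand, and the Rgs10 probe is at chr1:187634849-187634908 on the minus strand.
Rgs16: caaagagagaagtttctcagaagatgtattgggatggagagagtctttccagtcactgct
Rgs5: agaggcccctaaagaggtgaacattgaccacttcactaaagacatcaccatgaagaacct
Rgs4: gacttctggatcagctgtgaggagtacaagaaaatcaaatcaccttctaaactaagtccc
Rgs10: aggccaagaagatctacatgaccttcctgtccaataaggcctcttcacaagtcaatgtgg
The brighter Rgs4 probe lies at chr13:85534099-85534158 on the minus strand, downstream of the dimmer probe in the direction of transcription. The remaining probes lie at chr13:57890958-57891017 (Rgs2), chr13:90732436-90732495 (Rgs7), chr13:68766089-68766148 (Rgs8), chr10:98598485-98598544 (Rgs9) and chr17:15293763-15293822 (Rgs14), the Rgs8 probe on the plus strand and the other 4 on the minus strand. The positions of Rgs2, Rgs4, Rgs5, Rgs7, Rgs8 and Rgs16 are all on chromosome 13. No rn4 gene models were used here, so the exon or untranslated part that each probe matches was not determined.

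The 250 bases before the annotated start are shown for Rgs2 and Rgs4, R4 members, and for Rgs9 and Rgs14, whose levels had a correlation of 0.93 over the 12 arrays (RefSeq, build GRCr8; all 9 members were found in the table by symbol). They lie at chr13:58352667-58352916 (Rgs2), chr13:84475885-84476134 (Rgs4), chr10:94770388-94770637 (Rgs9) and chr17:9268234-9268483 (Rgs14), each on the minus strand. Capitals mark 3 short motifs, each searched on both strands. The first is TGACG, the core of the cAMP response element through which many activity genes are switched on. The second is ACGTG, the core of the hypoxia response element, which an E box also contains when that box is CACGTG. The third, TATAAA, is the TATA box.
Rgs2: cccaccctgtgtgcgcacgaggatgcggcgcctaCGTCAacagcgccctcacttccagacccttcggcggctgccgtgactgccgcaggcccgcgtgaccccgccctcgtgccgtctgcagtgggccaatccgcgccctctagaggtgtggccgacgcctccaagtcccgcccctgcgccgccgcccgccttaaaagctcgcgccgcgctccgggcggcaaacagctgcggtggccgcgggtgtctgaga
Rgs4: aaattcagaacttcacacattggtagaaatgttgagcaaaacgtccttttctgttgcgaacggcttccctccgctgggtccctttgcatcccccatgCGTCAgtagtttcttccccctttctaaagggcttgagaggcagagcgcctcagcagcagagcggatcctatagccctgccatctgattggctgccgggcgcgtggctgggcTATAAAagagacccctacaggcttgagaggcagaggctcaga
Rgs9: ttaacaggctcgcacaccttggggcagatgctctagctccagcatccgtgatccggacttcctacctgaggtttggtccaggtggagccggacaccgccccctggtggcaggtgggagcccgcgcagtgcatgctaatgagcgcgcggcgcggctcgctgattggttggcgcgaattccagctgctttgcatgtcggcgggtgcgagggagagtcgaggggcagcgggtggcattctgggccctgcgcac
Rgs14: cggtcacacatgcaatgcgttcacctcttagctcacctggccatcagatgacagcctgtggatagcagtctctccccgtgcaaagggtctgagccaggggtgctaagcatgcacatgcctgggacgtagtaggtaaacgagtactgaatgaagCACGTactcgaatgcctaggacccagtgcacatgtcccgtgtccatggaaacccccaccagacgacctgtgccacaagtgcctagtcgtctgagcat
TGACG was found in 2 of 9 members (Rgs2 and Rgs4) and in 18.2% of 33469 promoters of the same length. ACGTG was found in 2 of 9 (Rgs7 and Rgs14) and in 16.6% of promoters, and TATAAA in Rgs4 and in 12.9%. The full cAMP response element TGACGTCA was in 0 of 9 members and in 1.59% of promoters, and the Egr site GCGTGGGCG in 0 of 9 and in 0.478%. GGGCGG, a GC box, was in 6 of 9 members and in 30.5% of promoters. These matches describe the letters in the window and no more.

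The 5% O2 0 h and 1000 ppm CO 6 h arrays stood apart from their tissue label. The label was checked against 15 markers of medium spiny neurons, all of them well above background on all 12 arrays. Their summed signal (in units of the array's 75th percentile) was 31.8 on the first of these and 139 on the second, and between 267 and 540.1 on the other 10 arrays. The summed signal of 10 markers of septal and thalamic neurons was 122 and 90.3 on those 2 arrays, 64.1 on the 3000 ppm CO 12 h array and between 4.25 and 39.3 elsewhere. The summed signal of 7 hypothalamic peptide genes was also highest on those 2 arrays, at 60.7 and 95.3 against 2.61 to 26.8 elsewhere. Pmch was the furthest above air there, by 5.98 and 6.39, and 2 and 3 of the 7 were at least 2-fold higher. The air array, the only control, held the most choroid plexus signal (a sum of 508 over 10 markers, against 3.61 to 420 on the exposed arrays). The 4 arrays of 1000 ppm CO were on a slide of their own, a second slide held the air array with the first 3 arrays of 3000 ppm CO, and the third held the last of 3000 ppm CO with those of 5% O2, so exposure and slide can be told apart only in part. In tissue RNA, fewer cells of a type and less RNA per cell cannot be told apart.

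Differences of at least 2-fold from air were few among the RGS genes and were found mainly on the 2 arrays that stood apart. Of 99 pairs of member and exposed array, 5 were at least 2-fold higher than air, beside 2.94% of all pairs of gene and exposed array, and 5 were at least 2-fold lower, beside 4.05%. The higher pairs were Rgs9 in the 1000 ppm rats of 0 and 2 h, Rgs4 in the 3000 ppm rat of 12 h, and Rgs16 on both arrays that stood apart. The lower pairs were Rgs9 on both of these arrays, Rgs2 and Rgs14 on the 5% O2 array of 0 h, and Rgs16 in the 3000 ppm rat of 6 h. Without the 2 arrays, 3 of 81 pairs were at least 2-fold higher (2.84% of all pairs) and 1 was at least 2-fold lower (3.73%). At 2-fold the member shares were near the background. At 1.5-fold, 27 of 99 pairs were higher, beside 9.83% of all pairs, and 13 were lower, beside 9.94%. Rgs4 gave 8 of the 27 on its brighter probe, Rgs9 gave 6 and Rgs10 gave 4, and Rgs5 gave 0 in either direction. Without the 2 arrays that stood apart, 21 of 81 were at least 1.5-fold higher (9.7% of all pairs) and 6 lower (9.14%). All of these pairs share the 1 air array, so the level of a member in that rat enters each of its 11 differences.

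**Figure D1:**
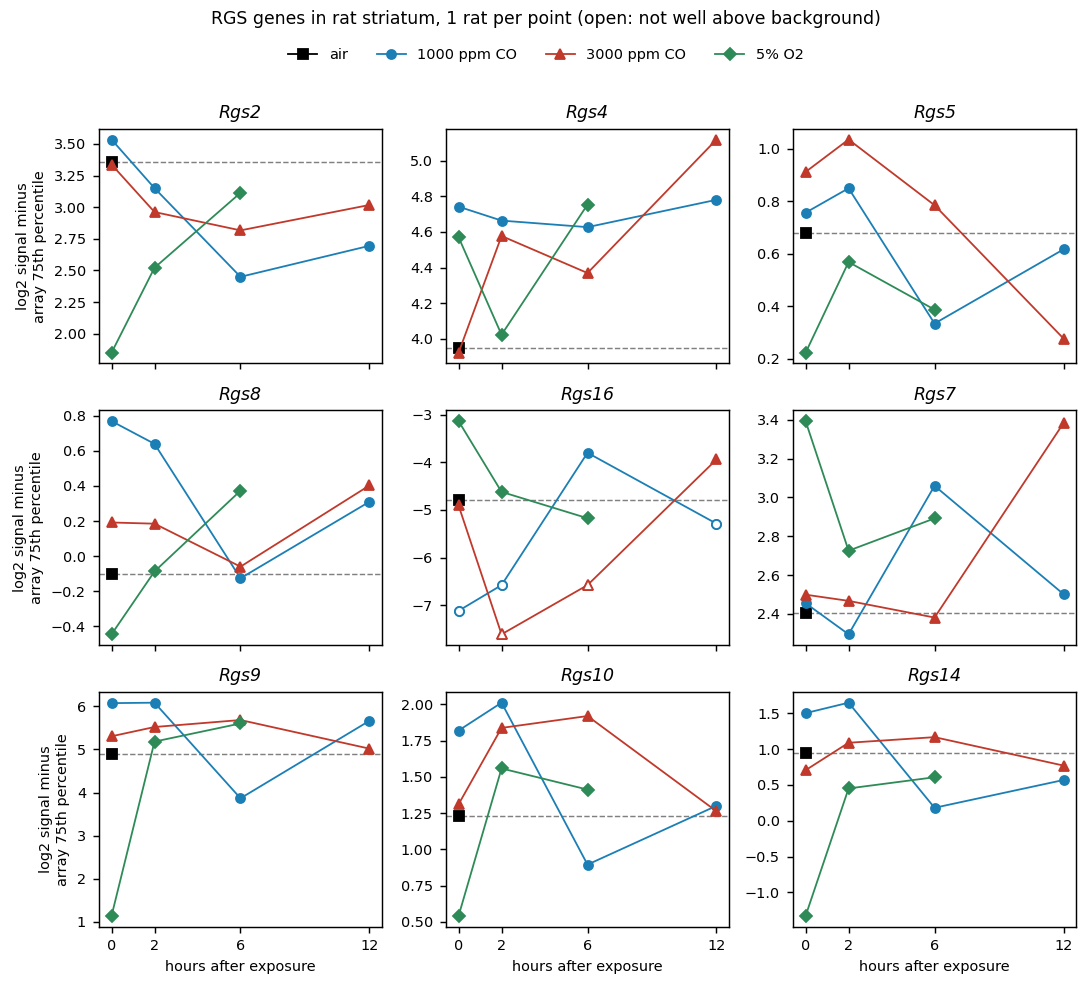
Level of each RGS gene (log2 processed signal minus the array's 75th percentile, vertical axis) against hours after exposure (horizontal axis), 1 rat per point, with lines joining the rats of an exposure, the air level as a dashed line and open symbols for values not well above background. Rgs9, Rgs14, Rgs10, Rgs2, Rgs5 and Rgs8 were lowest on the 5% O2 0 h array, and Rgs16 and Rgs7 were highest there.

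Rgs9, the striatal R7 member, had the largest residual standard deviation of the members in the additive model described below, and the smallest once the 2 arrays that stood apart were left out. It was 1.59 with all 12 arrays, against 1.48 for Rgs16, which was dim on 5 of them, and 0.21 to 0.76 for the others, and 0.087 with 10 arrays, against 0.16 to 0.99. Its level was 4.89 in air. The 1000 ppm rats read 6.07, 6.08, 3.87 and 5.66, the 3000 ppm rats 5.30, 5.52, 5.68 and 5.02, and the 5% O2 rats 1.14, 5.18 and 5.60. Thus 9 of 11 exposed arrays lay above air, and the other two were the arrays with low medium spiny neuron markers, where Rgs9 was 13.5-fold lower (5% O2 at 0 h) and 2.04-fold lower (1000 ppm CO at 6 h). On the remaining 9 arrays the difference from air ran from 0.13 to 1.19 with a median of 0.71.

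The medium spiny neuron markers took the same course. The median log2 difference from air of the 15 markers was 1.04, 0.93, -0.88 and 0.43 in the 1000 ppm rats, 0.16, 0.62, 0.64 and 0.17 in the 3000 ppm rats, and -3.27, 0.10 and 0.42 in the 5% O2 rats. The difference of Rgs9 from air departed from this median by -0.49 to 0.35 over the 11 arrays, so Rgs9 stayed close to the markers on arrays where they were high and where they were low. On the 5% O2 0 h array the dopamine receptor genes Drd1 and Drd2 and the enkephalin gene Penk differed from air by -3.98, -3.19 and -3.18, beside -3.75 for Rgs9. The part that the content of medium spiny neurons had in the Rgs9 values was not tested.

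Between the CO doses Rgs9 was lower after 3000 ppm at 3 of 4 matched times. The levels were 6.07 and 5.30 at 0 h, 6.08 and 5.52 at 2 h, and 5.66 and 5.02 at 12 h, for 1000 and 3000 ppm in that order, while at 6 h the order was turned (3.87 and 5.68). In a limma model with exposure and time as additive terms over all 12 arrays, the difference between the CO doses was -0.041 ± 0.94 (log2, SE; limma adjusted p = 0.989). Without the 2 arrays that stood apart, a setting added after the data were seen, it was -0.68 ± 0.11 (95% interval -0.95 to -0.41, limma adjusted p = 0.0477). It was the only RGS call at an adjusted p of 0.05 in any setting, beside 2.5% of all genes called in that fit. Those 2 arrays were set apart by low medium spiny neuron markers, whose course Rgs9 followed. Leaving them out lowered its residual standard deviation from 1.59 to 0.087 and moved the estimate from -0.041 to -0.68. The call came with both changes. The compared rats were on different slides at every matched time, so dose and slide cannot be told apart here, and the marker medians given above were also lower after 3000 ppm at 0, 2 and 12 h.

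Rgs7, the other R7 member and one found in many kinds of neuron, had its 3 highest levels on arrays where Rgs9 was low or near air. Rgs7 and Rgs9 differed from air in the same direction on 7 of 11 arrays and in opposite directions on 4. Its level was 2.40 in air, 2.45, 2.29, 3.06 and 2.50 in the 1000 ppm rats, 2.50, 2.47, 2.38 and 3.38 in the 3000 ppm rats, and 3.39, 2.73 and 2.89 in the 5% O2 rats. The 5% O2 0 h and 3000 ppm CO 12 h arrays were highest, 0.99 and 0.98 above air, and the 1000 ppm CO 6 h array was next at 0.65. These are the 3 arrays with the most septal and thalamic marker signal, whose median differences from air there were 1.60, 0.84 and 1.07. On the 3000 ppm CO 12 h array these markers were split. There 4 of the 10 were at least 2-fold higher than air and 3 at least 2-fold lower, with Trpc4 at -2.49. In the additive model Rgs7 was lower after 1000 ppm CO than after 5% O2 by 0.53 ± 0.28 on the log2 scale without passing the threshold (difference -0.53, 95% interval -1.20 to 0.13, limma adjusted p = 0.472).

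Partners of the R7 proteins were measured for 3 of 6 genes listed. Gnb5, the beta subunit that the R7 proteins need to be stable, differed from air by -0.88 on the 5% O2 0 h array and by -0.43 to 0.46 on the others. Gpr158, a receptor that holds Rgs7 at the membrane, differed by -0.41 there and by -0.16 to 0.68 elsewhere, and Ppp1r9b, the scaffold spinophilin that binds several RGS proteins, by 0.22 there and by 0.00 to 0.68 elsewhere. None of the 3 passed the threshold in any of the 10 contrasts of the additive model.

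**Figure D2:**
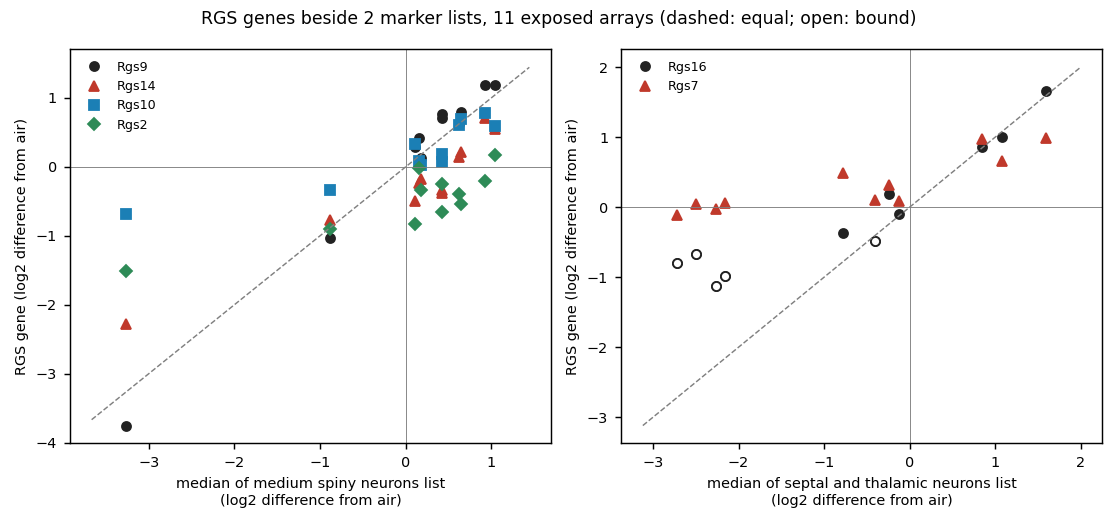
Log2 difference from air of RGS genes (vertical axes) against the median difference of 15 medium spiny neuron markers (left) or 10 septal and thalamic markers (right), 1 point per gene and exposed array, 11 arrays; open symbols are bounds and the dashed line marks equal differences. Rgs9 lay within -0.49 to 0.35 of the medium spiny neuron median, and Rgs16 and Rgs7 were highest on the arrays with the highest septal and thalamic medians.

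The R12 members were both lowest on the 5% O2 0 h array, as Rgs9, Rgs2, Rgs5 and Rgs8 were, and differed elsewhere. Rgs10 lay on the same side of air as Rgs9 on 11 of 11 arrays, as Rgs8 did, and Rgs14 on 6 of 11. Rgs14 had a level of 0.95 in air, 1.502, 1.65, 0.18 and 0.57 in the 1000 ppm rats, 0.71, 1.09, 1.17 and 0.77 in the 3000 ppm rats, and -1.33, 0.45 and 0.61 in the 5% O2 rats. Only 4 of 11 exposed arrays lay above air, and the 5% O2 0 h array was 4.84-fold below it. Without the 2 arrays that stood apart, the difference of Rgs14 from air ran from -0.50 to 0.70.

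Rgs14 was higher after CO than after 5% O2 in the additive model, by 1.16 ± 0.51 for 1000 ppm (limma adjusted p = 0.407) and by 1.12 ± 0.51 for 3000 ppm (limma adjusted p = 0.368), neither of which passed the threshold. All 3 of its 5% O2 levels lay below all 4 of its 3000 ppm CO levels, and below its 1000 ppm CO levels at 0 and 2 h. The medium spiny neuron median for the same contrasts was 1.43 (1000 ppm) and 1.32 (3000 ppm), with 15 of 15 markers higher in each. The 1000 ppm CO and 5% O2 arrays shared no slide. With the 10 arrays left after removing those with low medium spiny neuron markers, the differences were 1.05 ± 0.28 (limma adjusted p = 0.16) and 0.65 ± 0.24 (limma adjusted p = 0.271). In that fit Rgs9 differed by 0.87 and 0.19. The part that medium spiny neuron content had in the Rgs14 values was not tested.

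Rgs10, a short RGS protein known from microglia as well as from neurons, had a level of 1.23 in air, 1.82, 2.01, 0.90 and 1.30 in the 1000 ppm rats, 1.31, 1.84, 1.92 and 1.26 in the 3000 ppm rats, and 0.54, 1.56 and 1.41 in the 5% O2 rats. It was above air on 9 of 11 arrays and below it on the 2 that stood apart, by 0.69 (5% O2 at 0 h) and 0.34 (1000 ppm CO at 6 h) on the log2 scale. The median of the 12 microglia markers differed from air by -0.30 to 0.38. Single markers ran from -1.14 (Itgam, 3000 ppm CO at 12 h) to 1.58 (Itgam, 3000 ppm CO at 2 h). On the 5% O2 0 h array their median was 0.01, with 6 markers above air and 6 below. The part that microglia content had in the Rgs10 values was not tested. At 2 h Rgs10 was above its 0 h level in all 3 exposures, with a model estimate of 0.58 ± 0.32 (95% interval -0.18 to 1.34, limma adjusted p = 0.964). The medium spiny neuron median for the same contrast was 1.17, with 15 of 15 markers higher and 0 called by limma, adjusted or not.

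Rgs2, an inhibitor of Gq signalling that is induced quickly by activity in many cell types, was not high at 0 h, when many immediate early genes were. Its level was 3.36 in air, 3.53, 3.15, 2.45 and 2.69 in the 1000 ppm rats, 3.34, 2.96, 2.82 and 3.02 in the 3000 ppm rats, and 1.85, 2.52 and 3.11 in the 5% O2 rats. Only the 1000 ppm CO 0 h array lay above air, by 0.18, while 3000 ppm CO at 0 h lay within 0.02 of it and 5% O2 at 0 h was 2.84-fold lower. After both CO doses every later array lay below the 0 h array of the same exposure, and after 5% O2 both later arrays lay above it.

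The 19 immediate early genes measured, which are transcribed within minutes of a stimulus, had median differences from air of 1.02 (1000 ppm), 1.21 (3000 ppm) and 1.00 (5% O2) on the arrays of 0 h. Of these, 10, 10 and 9 were at least 2-fold higher than air, beside 3.47%, 1.92% and 4.11% of all genes. Btg2, an antiproliferative early gene, was higher by 1.66, 3.28 and 3.30 and Dusp1, a phosphatase of the MAP kinases, by 1.71, 2.36 and 2.47 on these arrays, against 0.18, -0.02 and -1.51 for Rgs2. Not all early genes rose, and 5, 0 and 6 of the 19 lay below air on these arrays. On the 5% O2 0 h array 3 were at least 2-fold lower, Egr2 at -4.23, Egr4 at -2.94 and Arc at -2.65, as Rgs2 was. Against 0 h, 5 of 18 early genes fell at the later times (limma adjusted p under 0.05, beside 0.0222% of all genes; list median -2.04, all genes 0.00), while the estimate for Rgs2 was -0.13 ± 0.33 (limma adjusted p = 0.9999). Leaving out the 2 arrays that stood apart gave -0.47 ± 0.22 for Rgs2 (limma adjusted p = 0.9997). In that fit the calls on early genes were lost too, since 0 of 27041 genes (0%) passed limma's adjusted threshold and 1045 had an unadjusted p under 0.05.

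Among the 3 genes most like Rgs2 by Pearson correlation over the 12 arrays was 1 early gene, Egr2, an early growth response factor (0.93). Egr2 differed from air by -0.49, 0.18 and -4.23 at 0 h and by -3.37 to -1.06 at later times, against -0.91 to -0.21 for Rgs2 at those times. The other two most like Rgs2 were Peli1 (0.95) and Dhx40 (0.93). Without the 2 arrays farthest from the median of Rgs2, the 3 correlations were 0.91 to 0.85. All genes were read on the same arrays with the same scaling, and these were picked for their likeness among 12092, so the values are a description.

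Rgs4, an R4 member that acts on Gi and Gq and is abundant in forebrain neurons, was mostly above air, but its 2 probes differed. The brighter probe read 3.95 in air, 4.74, 4.66, 4.63 and 4.78 in the 1000 ppm rats, 3.92, 4.58, 4.37 and 5.12 in the 3000 ppm rats, and 4.57, 4.02 and 4.75 in the 5% O2 rats. The dimmer probe read 0.82 in air, 1.46, 1.30, 0.45 and 1.13 in the 1000 ppm rats, 0.86, 1.47, 1.36 and 1.09 in the 3000 ppm rats, and 0.56, 0.44 and 1.29 in the 5% O2 rats. With the brighter probe 10 of 11 exposed arrays lay above air, by up to 1.17 at 12 h after 3000 ppm CO, which was 2.25-fold.

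The probes of Rgs4 differed in sign against air on 3 arrays. On the 1000 ppm CO 6 h array the brighter probe gave 0.68 and the dimmer -0.37, on the 5% O2 0 h array 0.62 and -0.26, and on the 5% O2 2 h array 0.07 and -0.38. On a further array, that of 3000 ppm CO at 0 h, both probes lay within 0.04 of air with opposite signs (-0.03 and 0.04). In the additive model 1000 ppm CO stood above air by 0.58 ± 0.40 with the brighter probe (limma adjusted p = 0.646) and by 0.22 ± 0.53 with the dimmer probe (limma adjusted p = 0.938), and 12 h above 0 h by 0.53 ± 0.31 (limma adjusted p = 0.893) and 0.02 ± 0.41 (limma adjusted p = 0.994). The direction of Rgs4 is therefore given for each probe and not for the gene.

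Rgs8, an R4 member that acts on Gi and Go in neurons, had a level of -0.10 in air, 0.77, 0.64, -0.13 and 0.31 in the 1000 ppm rats, 0.19, 0.18, -0.06 and 0.40 in the 3000 ppm rats, and -0.45, -0.09 and 0.37 in the 5% O2 rats. It lay above air on 9 of 11 arrays and below on the 2 with low medium spiny neuron markers. The largest difference was 0.87 at 0 h after 1000 ppm CO, and in the additive model 1000 ppm CO stood above air by 0.49 ± 0.45 (limma adjusted p = 0.747).

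Rgs5, which marks pericytes, the contractile cells of capillary walls, had the narrowest range of the members over the 12 arrays. Its level was 0.68 in air, 0.76, 0.85, 0.33 and 0.62 in the 1000 ppm rats, 0.91, 1.04, 0.79 and 0.28 in the 3000 ppm rats, and 0.22, 0.57 and 0.39 in the 5% O2 rats. The difference from air ran from -0.46 to 0.36, and 5 of 11 exposed arrays lay above air. The 11 pericyte and smooth muscle markers had a median difference from air between -0.04 and 0.46, and on the 5% O2 0 h array, where Rgs5 was lowest, 7 of the 11 lay above air and 4 below, from -2.26 (Anpep) to 0.65 (Pdgfrb).

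Rgs5 gave the only unadjusted p under 0.05 of any member in the model. It was higher after 3000 ppm CO than after 5% O2 by 0.44 ± 0.17 (95% interval 0.045 to 0.84), which did not pass after adjustment (limma adjusted p = 0.323, beside 14.4% of all genes with an unadjusted p under 0.05). The 3000 ppm CO 12 h array, the 1 array of that dose on the slide of the 5% O2 arrays, read 0.28, within the range of the 5% O2 arrays, while those on the other slide read 0.79 to 1.04. With slide as a fixed factor the difference was -0.086.

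Rgs16, an R4 member known for its high level in the thalamus, was dim and was well above background on 7 of 12 arrays. The 7 were the air array (-4.80), the 1000 ppm rat of 6 h (-3.80), the 3000 ppm rats of 0 h (-4.91) and 12 h (-3.94), and all the 5% O2 rats (-3.14, -4.62 and -5.17). Not well above background, it read -7.11, -6.58 and -5.29 in the other 1000 ppm rats and -7.61 and -6.57 in the other 3000 ppm rats. For these the fold against air was taken against the higher of the dim value itself and the lowest signal well above background on that array. It is a lower bound only under the background correction used here, and under normexp the 3000 ppm rat of 6 h did not lie below air. In the 1000 ppm rat of 12 h the dim value (-5.29) lay above that lowest signal (-5.54), so its fold is the dim reading and no bound.

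Rgs16 was 3.17-fold above air on the 5% O2 0 h array, 2.00-fold on the 1000 ppm CO 6 h array and 1.81-fold on the 3000 ppm CO 12 h array. It was at least 2.18-fold lower than air in the 3000 ppm rat of 6 h and at least 1.98-fold lower in that of 2 h. In the 1000 ppm rats it was at least 1.59-fold lower at 0 h, at least 1.73-fold lower at 2 h and, by its dim reading, 1.40-fold lower at 12 h. The septal and thalamic markers had their highest medians on the same 3 arrays and their lowest, -2.72 to -2.16, on 4 of the 5 arrays where Rgs16 was dim. Slc17a6, the vesicular glutamate transporter of thalamic neurons, differed from air by 2.02 on the 5% O2 0 h array and by -5.31 after 1000 ppm CO at 2 h. The part that the content of septal and thalamic tissue had in the Rgs16 values was not tested. In the additive model the estimates against 5% O2 were -1.75 ± 0.98 for 1000 ppm CO and -1.82 ± 0.98 for 3000 ppm CO (limma adjusted p = 0.489 and 0.423), with dim values at their measured signal.

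**Figure D3:**
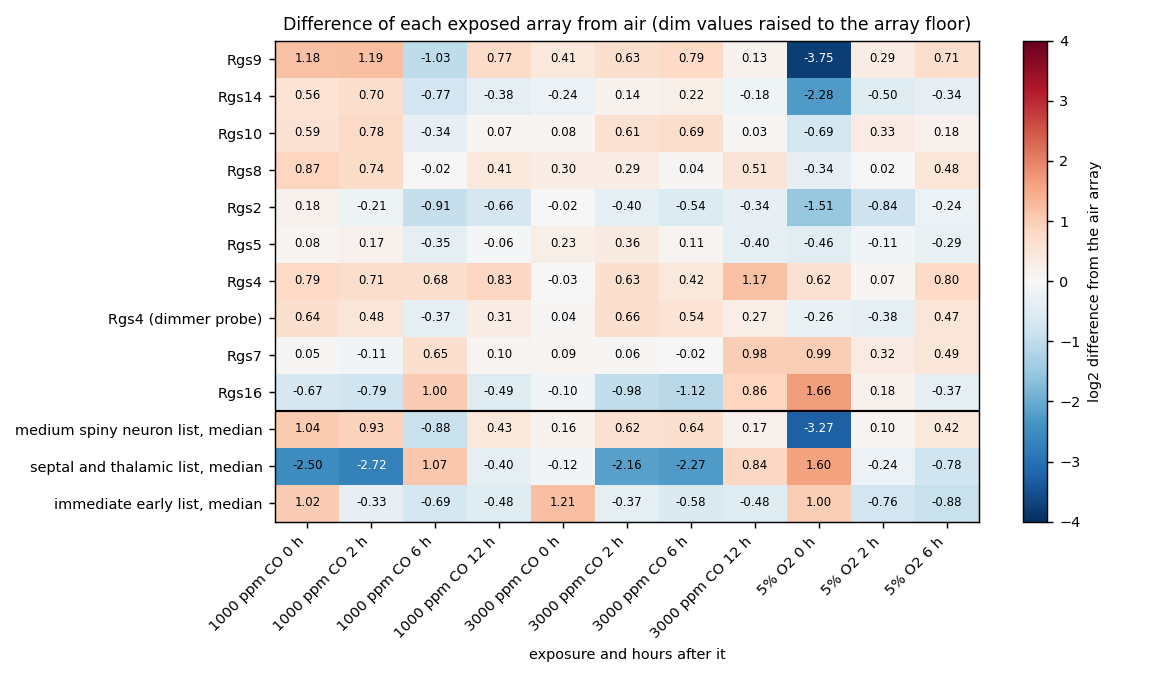
Log2 difference from the air array (colour and printed value) for the 10 RGS probes and, under the line, for the medians of 3 gene lists, with each exposed array as a column. Rgs9, Rgs14, Rgs10, Rgs2, Rgs5 and Rgs8 have their lowest value in the 5% O2 0 h column, from -3.75 (Rgs9) to -0.34 (Rgs8). The medium spiny neuron median is lowest there too. No RGS gene shows the rise of the immediate early median in all 3 of the 0 h columns.

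Of the 9 members, none passed the threshold in any of the 10 contrasts of the model (limma, Benjamini-Hochberg adjusted p under 0.05 over 27041 genes). The share of all genes called was 0.0185%, 0.0222% and 0.0148% at 2, 6 and 12 h against 0 h and 0.0222% for the mean of the later times against 0 h. It was 5.28% between the CO doses, 0% for 3000 ppm CO against 5% O2, 0.54% for 1000 ppm CO against 5% O2, and 0.152%, 0.0074% and 0.0037% for 1000 ppm CO, 3000 ppm CO and 5% O2 against air. At an unadjusted p under 0.05 the count of members was 1, the Rgs5 contrast given above. The 95% intervals of the members stayed wide, for example -1.15 to 3.14 for Rgs9 and -0.43 to 0.26 for Rgs5 at the later times against 0 h. These arrays do not tell apart the differences inside an interval.

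**Figure D4:**
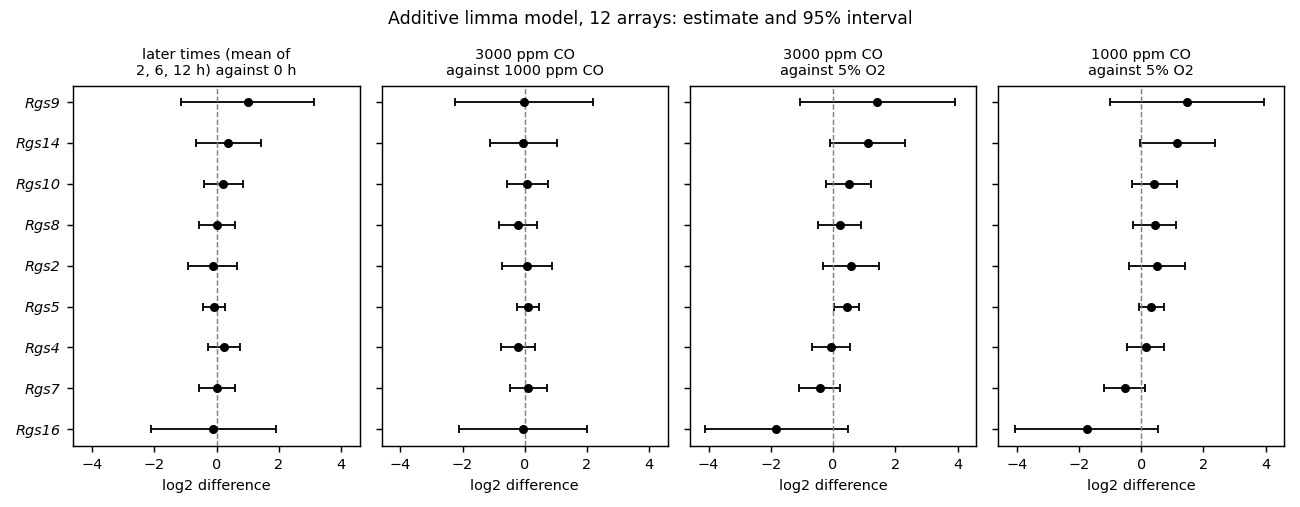
Estimates (points) and 95% intervals (bars) of 4 contrasts of the additive model over 12 arrays, as log2 differences on the horizontal axes, for each of the 9 RGS genes. All intervals reach across 0 except that of Rgs5 for 3000 ppm CO against 5% O2 (0.045 to 0.84), and those of Rgs9 and Rgs16 are the widest.

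The genes most like each member over the 12 arrays, among 12092 named genes well above background on all arrays, differed between members. Rgs9 was nearest to Mme (Pearson correlation 0.99), the adenosine receptor gene Adora2a (0.99) and Asic4 (0.99), and these were 0.95, 0.93 and 0.93 without the 2 arrays that stood apart. Rgs14 was nearest to Pbx3 (0.97), Rgs10 to Nebl (0.98) and Rgs8 to Tlnrd1 (0.96). Rgs16 was nearest to Tcf7l2 (0.98), 1 of the septal and thalamic markers, and Rgs7 to Ranbp9 (0.97). Since Rgs16 was well above background on only 7 of 12 arrays, its correlations include dim readings at their measured signal. Rgs5 was nearest to Mob1a (0.95) and Rgs4, on its brighter probe, to Snap25 (0.92), a gene of the synaptic vesicle fusion machinery. Among the members, Rgs9 and Rgs14 had a correlation of 0.93 and Rgs16 and Rgs10 of -0.90, with 12 arrays that share scaling and tissue content.

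Of 12 other RGS genes listed, 9 were measured, and 4 of their 99 differences from air were at least 2-fold higher (2.94% of all pairs) and 6 at least 2-fold lower (4.05%). The 4 higher were all of Rgs1, and the lower were 4 of Rgs3 and 2 of Rgs12. Rgs1, an R4 member of immune cells, was the only other RGS gene above air by at least 2-fold at 0 h after all 3 exposures, by at least 1.07 (1000 ppm), at least 2.32 (3000 ppm) and at least 2.65 (5% O2) on the log2 scale, since it was not well above background in air and was well above background on 7 of 12 arrays. The remaining Rgs1 pair was the 3000 ppm rat of 6 h, at least 2.00 above air. On that array the summed signal of 7 blood cell markers was 300, against 4.37 to 21.3 elsewhere. All 7 lay above air there, from 0.19 (Ptprc) to 5.30 (Hbb). On the 5% O2 0 h array, where the Rgs1 difference was largest, the sum was 5.47. The part that blood content had in the Rgs1 values was not tested. Rgs3 ran from -1.43 in the 3000 ppm rat of 6 h to 0.98 on the 5% O2 array of 0 h. Rgs12 was lowest on the 5% O2 0 h array at -1.20, and Rgs6 and Rgs11, the remaining R7 members, stayed within -0.37 to 0.28 of air.

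Of the receptors and subunits that RGS proteins act on, the receptor list was low on the arrays with low medium spiny neuron markers. The median of 19 striatal G protein coupled receptors was -1.39 on the 5% O2 0 h array and 0.14 to 0.81 elsewhere except -0.69 on the 1000 ppm CO 6 h array. On the 5% O2 0 h array 15 of the 19 receptors lay below air and 4 above, from -4.65 for Gpr6 to 0.88 for the mu opioid receptor gene Oprm1. The median of 18 G protein subunits stayed within -0.16 to 0.21 of air on all 11 exposed arrays. Gng7, the gamma subunit of the striatal Golf protein, was an exception in that list at -3.40 on the 5% O2 0 h array, where its alpha subunit Gnal was at -0.88. None of the 18 subunits passed the threshold in any contrast of the model.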

How the data were processed

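Total RNA was read on 1-colour Agilent whole rat genome arrays. Per the submitters' processing notes, spots were read with Agilent Feature Extraction 10.7.3.1. Per the file headers, the deposited processed signal of a spot is an intensity after background subtraction and spatial detrending, unscaled between arrays, and the mean and local background signals are raw intensities. The deposited log2 values of the series table followed the log2 processed signal (correlation at least 0.9999) and were centred near each array's median, and served as an alternative. Scale and centring are inferred from this match. The 75th percentile of the processed signal was 462 to 806 intensity units and 72.9% to 78.7% of spots were well above background, and precision is limited by how many arrays there are.

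Here each array's 75th percentile was subtracted from the log2 processed signal, and control and outlying spots were left out (14 probes had no usable spot on some array). Repeated spots were averaged, and where a gene had several probes (4684 genes) the one brightest on average stood for it. RefSeq symbols, matched by accession, symbol or synonym, replaced older names, and the file's own name stands for 19688 of 41012 probes. Genes well above background on at least 1 array (29395) entered the comparison with air, and those on at least 3 arrays (27041) entered an additive model of exposure and time, fitted with limma 3.58.1 in R 4.3.3 on 5 residual degrees of freedom, whose 2-sided tests were adjusted by Benjamini-Hochberg. The air rat informs only contrasts with air. Nothing in the labels gives more than 1 rat for a group, so the residual mixes animal, array, dissection and any interaction. The model was tested on simulated data. The members and gene lists were chosen with earlier results of these data known. All 9 members are named, with the 3 genes most like each by correlation and listed genes with the largest differences from air. Alternatives changed background correction, scaling, probe choice, filter, slide, arrays used and fold threshold.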

Additional observations from a re-analysis of the deposited data

Results flagged for a closer look

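Between 0 h and 6 h, 4 RGS genes moved by at least 2-fold in opposite directions after different exposures, and with 1 rat at each point none of these differences was tested. Rgs9 fell by 2.21 on the log2 scale after 1000 ppm CO and was 4.46 higher at 6 h after 5% O2, which are 6.67 apart. Rgs14 fell by 1.32 and was 1.94 higher (3.26 apart), and Rgs2 fell by 1.08 and was 1.26 higher (2.35 apart). Rgs16 was at least 1.67 higher after 1000 ppm CO at 6 h, at least 1.02 lower (difference -1.02) after 3000 ppm CO and 2.04 lower (difference -2.04) after 5% O2, so that these exposures differed from 1000 ppm CO by -2.68 and -3.70 or more in the same direction (both are bounds, because Rgs16 was dim at 0 h after 1000 ppm CO). The 6 h array of 1000 ppm CO and the 0 h array of 5% O2, which had low medium spiny neuron markers and high septal and thalamic markers, enter all of these differences except the one for 3000 ppm CO, which rests on the first of them alone.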

How the results depend on the processing

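No paired analysis was possible because each exposure and time had 1 rat and the labels carry no replicate numbers. The count of RGS genes past the threshold stayed at 0 in each contrast that an alternative gave (5 with 0, 2 and 6 h only, 7 with slide as a fixed factor or without the air array, and 10 otherwise), except that it was 1 (Rgs9) for 3000 against 1000 ppm CO without the 1000 ppm CO 6 h and 5% O2 0 h arrays. The count of pairs at least 2-fold higher than air was 27 at a fold of 1.5 (9.83% of all pairs). At a fold of 3 it was 1 (2338 of 323345 pairs over all genes). It was 3 with genes well above background on all 12 arrays (5876 of 255849) and 3 against the median array (4909 of 323345). With the deposited series values it was 7 (11068 of 323345). With normexp it was 4 (15680 of 323345), as with the mean over probes (14073 of 323521). Without the 2 arrays, a setting added after the data were seen, it was 3 (2.84%). The count at least 2-fold lower was 13 at a fold of 1.5 (9.94%) and 2 at a fold of 3 (4720 of 323345). It was 8 with the mean over probes (16757 of 323521) and 6 with quantile normalization (12165 of 323345). It was 4 with genes well above background on all 12 arrays (8358 of 255849) and 4 against the median array (4121 of 323345). Without the 2 arrays it was 1 (3.73%). Rgs9 between the CO doses turned sign under normexp background correction (0.083) and with 0, 2 and 6 h only (0.16), and ran from -0.91 to 0.68 as each array was left out. In the same way Rgs9 at later times against 0 h ran from -0.38 (without 5% O2 at 0 h) to 2.01, and Rgs2 from -0.59 to 0.22. Rgs5 for 3000 ppm CO against 5% O2 was -0.086 with slide as a fixed factor and 0.038 with slide as a random block. With normexp, Rgs16 was 0.25 for 1000 ppm CO against 5% O2 and 0.055 above air for 3000 ppm CO at 6 h. The cause of these turns was not tested. The remaining values kept their direction or had no call to lose. Signal over background limits Rgs16, and 1 rat per group limits all members.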
